A study of Mus musculus with 2 samples.

Results

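Lactoferrin (Ltf), transferrin (Trf) and lipocalin 2 (Lcn2), which bind iron or the siderophores that carry it, were described together with 7 further genes of mucosal defence, Slpi, Wfdc2, Wfdc18, Cd14, Pigr, Defb1 and Tspan8. These 10 genes, a chosen list of secreted and cell surface products of the mammary epithelium, were found by symbol in both count matrices among 31053 genes. Luminal epithelial cells of the mammary gland were isolated by fluorescence-activated sorting from mice of the FVB/NJ strain aged 3.5 months, and 1 droplet-based 3′ single-cell RNA library was made per genotype. The group called WT carried Sox9-GFP, a reporter that marks Sox9 expression with green fluorescent protein. The group called C3-TAg carried the same reporter and the C3-TAg transgene, in which regulatory sequence of a rat prostate gene drives the simian virus T antigens, so that the reporter is shared by both groups. The sources used here give neither the number of mice per library nor the sort gate, so each library may pool animals.

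In each library the cells were put into 3 classes. Hormone-sensing cells had at least 5 UMIs (unique molecular identifiers, the counted molecules) of Areg, Pgr, Esr1 and Cited1 together per 10000. The remaining cells, called other cells, were split by the share of UMIs from the 4 caseins Csn1s1, Csn1s2a, Csn2 and Csn3, at 0.5% or more (casein-high) or below (casein-low). A level is given in counts per 1e6 UMIs (CPM), from the UMIs of a gene and of all genes summed over a class, and values in parentheses are 95% intervals that cover counting error only. With 1 library per genotype no difference could be tested against the spread between animals, and a gene counts as higher or lower where the libraries or classes differ at least 1.5-fold. Levels are compared within a gene and not between genes.

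Iron-binding proteins withhold iron from bacteria at mucosal surfaces and in milk, where lactoferrin and transferrin hold the metal itself and lipocalin 2 captures bacterial siderophores. Proteins with a WAP domain, named after whey acidic protein, include inhibitors of serine proteases and antibacterial peptides, and beta-defensins disrupt microbial membranes. In the mammary gland such proteins are known as products of luminal cells that enter milk, and several of them respond to bacterial lipopolysaccharide, for which CD14 is a co-receptor.

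The sequence just before the transcription start is shown for 4 genes, because they stand for both patterns described next. Ltf and Lcn2 were high in other cells and low in hormone-sensing cells, whereas Slpi and Wfdc2, both on chromosome 2 with 173.3 kb between the genes, were high in hormone-sensing cells and went opposite ways between the libraries there. Each is the 250 bases before the RefSeq start on GRCm38.p6, which for Lcn2, Slpi and Wfdc2 lies inside and for Ltf overlaps the longer GENCODE gene given below, written in the direction of transcription, and capitals mark a match on either strand to the C/EBP core TTGCNNAA. They lie at chr9:111019042-111019291 on the plus strand (Ltf), chr2:32387740-32387989 on the minus strand (Lcn2), chr2:164356508-164356757 on the minus strand (Slpi) and chr2:164562465-164562714 on the plus strand (Wfdc2).
Ltf: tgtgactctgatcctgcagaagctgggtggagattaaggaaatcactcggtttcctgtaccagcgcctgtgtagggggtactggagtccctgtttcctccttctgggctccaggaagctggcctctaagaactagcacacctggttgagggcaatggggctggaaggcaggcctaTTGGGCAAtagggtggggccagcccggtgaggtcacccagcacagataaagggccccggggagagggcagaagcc
Lcn2: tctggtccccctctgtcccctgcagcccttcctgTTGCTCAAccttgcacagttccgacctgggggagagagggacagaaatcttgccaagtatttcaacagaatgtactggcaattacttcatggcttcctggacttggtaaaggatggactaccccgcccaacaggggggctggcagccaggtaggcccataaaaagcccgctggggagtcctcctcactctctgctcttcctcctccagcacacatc
Slpi: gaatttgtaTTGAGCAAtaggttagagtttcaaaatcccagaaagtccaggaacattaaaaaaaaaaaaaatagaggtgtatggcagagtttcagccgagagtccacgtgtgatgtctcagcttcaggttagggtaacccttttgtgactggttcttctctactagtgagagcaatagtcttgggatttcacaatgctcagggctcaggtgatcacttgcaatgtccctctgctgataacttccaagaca
Wfdc2: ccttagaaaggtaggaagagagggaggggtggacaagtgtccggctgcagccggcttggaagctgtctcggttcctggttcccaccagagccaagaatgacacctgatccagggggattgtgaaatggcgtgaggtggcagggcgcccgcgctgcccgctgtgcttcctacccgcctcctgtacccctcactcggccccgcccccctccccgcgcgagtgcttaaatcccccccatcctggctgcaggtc
Of the 10 genes, Ltf, Lcn2, Slpi, Wfdc2, Wfdc18, Pigr and Tspan8 had an entry, and 4 of these 7 held the C/EBP core, namely Ltf, Lcn2, Slpi and Tspan8. The match began 75, 216, 241 and 244 bases before the start. Over all 27025 genes with an entry, 9.55% held it in a window of the same length. The kappaB consensus, the STAT core TTCNNNGAA, the estrogen response element and the glucocorticoid and progesterone receptor element, searched on both strands, were in 0 of the 7, against 7.01%, 7.18%, 0.0629% and 0.381% of all genes. Matches that overlap another motif were not removed. A match describes these letters and not a bound site, and genes high in hormone-sensing cells (Slpi) and in other cells (Ltf, Lcn2) both held the core.

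After filters and removal of called doublets, 7046 WT and 7914 C3-TAg cells were kept, with medians of 10296 and 8684 UMIs. Hormone-sensing cells were 38.6% of WT and 25.6% of C3-TAg cells (2720 and 2027), casein-high cells 53.2% and 31.5% (3750 and 2491) and casein-low cells 8.17% and 42.9% (576 and 3396), shares that the sort can set. The 5 hormone-sensing markers that the rule did not use (Prlr, Foxa1, Wnt4, Tnfsf11 and Cxcl15) summed to 3512 CPM in WT against 2312 CPM in C3-TAg hormone-sensing cells, against 93.7 to 423.1 CPM in the other classes. The classes are ranges of a score: 67 WT and 362 C3-TAg cells lay between 3 and 5 hormone gene UMIs per 10000 and 52 and 174 between 5 and 7, while 226 and 325 cells lay between 0.25 and 0.5% casein and 354 and 491 between 0.5 and 1%. The basal marker list (7 genes) summed to 17.3, 31.5 and 213.3 CPM in the WT hormone-sensing, casein-high and casein-low classes and to 114.6, 465.3 and 432.6 CPM in those of C3-TAg. Cells with non-epithelial markers numbered 10 in WT and 6 in C3-TAg, and the libraries shared 20 barcodes.

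The 10 genes fell into the same pair of sets in both libraries. Slpi, Wfdc2 and Defb1 were at least 1.5-fold higher in hormone-sensing than in other cells, and Ltf, Trf, Lcn2, Wfdc18, Cd14, Pigr and Tspan8 were at least 1.5-fold lower there. Thus 3 of 10 genes were higher and 7 lower in WT, where 37.5% of 13298 measured genes were higher and 21.1% lower, and the same 3 and 7 in C3-TAg, where 20.1% and 24.2% of 13757 were. The folds for the low set ran from 23.8 to 35.9 in WT and from 4.49 to 16.2 in C3-TAg. Slpi was 8.18-fold higher in WT and 47.5-fold higher in C3-TAg hormone-sensing cells than in other cells, Wfdc2 27.7-fold and 7.28-fold, and Defb1 52.7-fold and 29.5-fold, the last on 4 UMIs in the other cells of C3-TAg. At a hormone gene cut of 20 the log2 ratio went from 5.57 to 4.28 for Slpi in C3-TAg, from 4.79 to 3.31 for Wfdc2 in WT, from 5.72 to 4.54 for Defb1 in WT and from 4.88 to 2.53 for Defb1 in C3-TAg, and for the low set it moved further from 0, as for Wfdc18 in C3-TAg from -2.17 to -4.49.

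**Figure D1:**
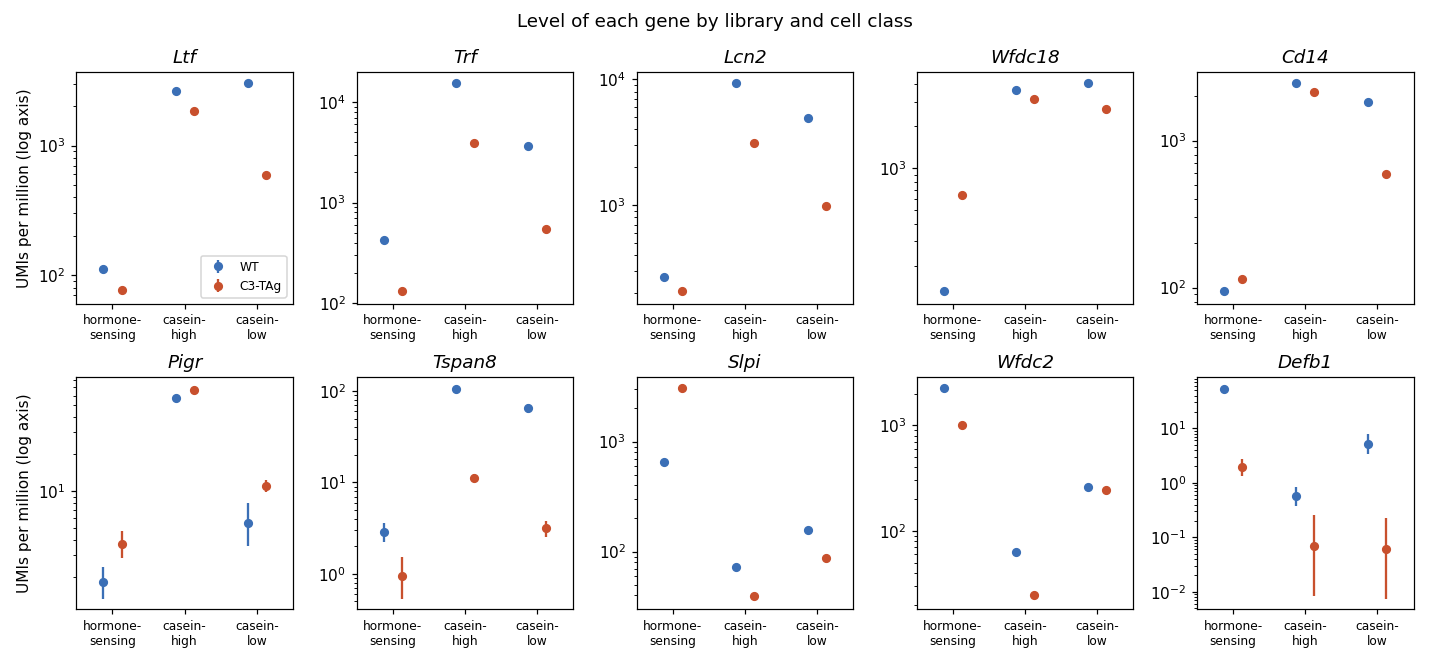
Level of each of the 10 genes (CPM, log axis) in hormone-sensing, casein-high and casein-low cells of WT (blue) and C3-TAg (red), with 95% Poisson intervals as bars, each panel on its own scale. Slpi, Wfdc2 and Defb1 are highest in hormone-sensing cells of both libraries, the remaining 7 genes in casein-high or casein-low cells, and Slpi stands at 651.0 CPM in WT against 3067 CPM in C3-TAg hormone-sensing cells.

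Trf (ENSMUSG00000032554, chromosome 9, 103204001 to 103230444, minus strand, GRCm38) encodes transferrin, the iron carrier of plasma that mouse mammary cells also secrete into milk. It was at 15613 CPM in WT casein-high, 3623 CPM in WT casein-low and 429.2 CPM in WT hormone-sensing cells, and at 3903, 551.1 and 131.2 CPM in the same classes of C3-TAg. Both casein classes of C3-TAg lay below those of WT, and the hormone-sensing values are set beside the caseins further on. The log2 ratio of Trf in C3-TAg over WT was -2.00 in casein-high cells, and Trf was 6.57-fold lower in casein-low cells (6.44 to 6.71). Every WT casein-high cell and 97.3% of those of C3-TAg held a Trf UMI when thinned to 2000 UMIs (99.9% of C3-TAg unthinned), so that the difference there lay in the amount per cell. Trf overlaps Gm20425 on the same strand, and reads of the pair could have been split by the counting.

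Lcn2 (ENSMUSG00000026822, chromosome 2, 32384633 to 32388252, minus strand) encodes lipocalin 2, which captures bacterial siderophores. It was at 9428 CPM in WT casein-high, 4896 CPM in WT casein-low and 268.0 CPM in WT hormone-sensing cells, against 3137, 989.5 and 206.5 CPM in C3-TAg. The gap between libraries was wide in both casein classes, 3.01-fold (2.98 to 3.03) and 4.95-fold (4.86 to 5.03) lower in C3-TAg, and was 1.30-fold in hormone-sensing cells. The median casein-high cell held 86.2 Lcn2 UMIs per 10000 in WT and 27.3 in C3-TAg, and 99.97% and 99.8% of these cells held at least 1.

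Ltf (ENSMUSG00000032496, chromosome 9, 111019271 to 111042767, plus strand) encodes lactoferrin, an iron-binding protein of milk and of neutrophil granules. It was at 2622 CPM in WT casein-high and 3015 CPM in WT casein-low cells, a ratio of casein-low over casein-high of 1.15 (1.13 to 1.17). In C3-TAg it was at 1847 and 596.0 CPM, a ratio of 0.323 (0.317 to 0.328). The casein classes were thus within 1.5-fold of each other in WT and further apart than that in C3-TAg. C3-TAg was 5.06-fold lower (4.95 to 5.17) in casein-low cells and 1.42-fold lower (1.41 to 1.43) in casein-high cells. Ltf also varied from cell to cell more widely than its mean shows, with 2.96 and 37.0 UMIs per 10000 at the 25th and 75th percentile of WT casein-high cells and 10.7% of these cells without a UMI. Neutrophils also carry Ltf and Lcn2. The 7 neutrophil markers summed to 295.3 and 103.6 CPM in the WT casein-high and casein-low classes and to 154.9 and 14.2 CPM in those of C3-TAg, nearly all of it S100a8 (295.0 CPM in WT casein-high cells), with 5, 6, 4 and 6 of the 7 at 0. Retnlg, Ngp and Mmp8 were at 0 in all 4 of these classes, and the part of S100a8-bearing cells in the Ltf and Lcn2 levels was not tested.

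Wfdc18 (ENSMUSG00000000983, chromosome 11, 83709015 to 83711348, plus strand) encodes a WAP domain protein also called extracellular proteinase inhibitor. Among other cells it was at 3669.6 and 4069.6 CPM in WT casein-high and casein-low cells and at 3146 and 2672 CPM in C3-TAg. C3-TAg was 1.17-fold lower in casein-high and 1.52-fold lower in casein-low cells, the latter just past the fold that counts as lower. That casein-low call was lost with a hormone gene cut of 10 (log2 ratio -0.35) and turned to 0.19 with a cut of 20. It was also lost with the mean over cells (-0.45), all barcodes kept (-0.54) and casein cuts of 0.25% (-0.57) and 1% (-0.58). A Wfdc18 UMI was found in 88.3% and 90.1% of casein-high and in 80.1% and 83.5% of casein-low cells thinned to 2000 UMIs.

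Cd14 (ENSMUSG00000051439) encodes the co-receptor that hands lipopolysaccharide to TLR4. It was at 2474 CPM in WT against 2139 CPM in C3-TAg casein-high cells, and at 1835 and 593.9 CPM in casein-low cells. The libraries were within 1.5-fold in casein-high cells and 3.09-fold apart (3.01 to 3.17) in casein-low cells. Cd14 is also a monocyte and macrophage gene, and the 9 immune markers summed to 1.28 and 0.909 CPM in the casein-high classes and to 30.5 and 3.04 CPM in the casein-low classes of WT and C3-TAg.

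Pigr (ENSMUSG00000026417, chromosome 1, 130826684 to 130852249, plus strand) encodes the receptor that carries polymeric immunoglobulins across epithelium into secretions. It was at 57.2 CPM (55.0 to 59.4) in WT against 66.5 CPM (63.6 to 69.6) in C3-TAg casein-high cells, and its log2 ratio of 0.22 there turned to -0.10 with TMM scaling. In casein-low cells it was at 5.48 and 11.0 CPM, 2.01-fold higher in C3-TAg (1.35 to 3.12). Pigr was thus the 1 gene of the low set that was counted as lower in no class of C3-TAg, although only 26 UMIs stood behind the WT casein-low value.

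Tspan8 (ENSMUSG00000034127, chromosome 10, 115816832 to 115849893, plus strand) encodes a tetraspanin of epithelial membranes. It was at 106.1 and 64.9 CPM in WT casein-high and casein-low cells and at 11.2 and 3.14 CPM in C3-TAg. C3-TAg was 9.45-fold lower (8.44 to 10.6) and 20.7-fold lower (16.5 to 26.1), the widest gaps of the low set in both classes. A Tspan8 UMI was present in 17.9% of WT against 1.61% of C3-TAg casein-high cells thinned to 2000 UMIs. The gene overlaps 4930422I22Rik on the opposite strand.

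Casein-low cells differed from casein-high cells in both directions. In WT 3 of 10 genes (Slpi, Wfdc2 and Defb1) were higher and 4 (Lcn2, Trf, Pigr and Tspan8) lower in casein-low cells, against 25.9% higher and 8.13% lower of 12304 measured genes. In C3-TAg, where Defb1 had too few UMIs, 2 of 9 (Slpi and Wfdc2) were higher and 6 (Ltf and Cd14 beside the same 4) lower, against 30.8% and 8.99% of 13235. Wfdc2 was 4.12-fold higher in casein-low cells of WT and 9.80-fold higher in those of C3-TAg, and Pigr 10.4-fold and 6.05-fold lower. The other hormone-sensing markers stood at 423.1 and 118.3 CPM in the casein-low classes, and their part in the Wfdc2 and Slpi levels there was not tested.

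The libraries were then compared over all 10 genes in each class. In casein-high cells 6 of 10 genes were lower and 0 higher in C3-TAg, against 10.6% lower and 31.2% higher of 12905 measured genes, and the median log2 ratio was -1.11 against 0.32 for all genes. In casein-low cells 8 of 10 were lower and 1, Pigr, was higher, against 14.7% lower and 37.2% higher of 12820, with a median of -1.97 against 0.35. Wfdc2 and Defb1 in WT casein-high cells were at 2.81% and 1.08% of their hormone-sensing level. Single hormone-sensing markers ran from 0% (Tnfsf11) to 5.31% (Wnt4) there. Defb1 in WT casein-low cells was at 9.91%, where the markers ran from 1.02% (Areg) to 19.8% (Wnt4). These levels are thus not told from background, and the counts of lower genes include their calls. In hormone-sensing cells 4 were lower (Trf, Wfdc2, Defb1 and Tspan8) and 3 higher (Slpi, Wfdc18 and Pigr), against 9.14% lower and 22.8% higher of 12786, with a median of -0.46 against 0.14. For Trf, Tspan8 and Pigr the WT level in hormone-sensing cells did not exceed what the caseins show there, and subtracting the casein share left WT levels of -68.7 CPM for Trf and -0.66 CPM for Tspan8 and a value just under 0 for Pigr. The calls of these 3 genes in hormone-sensing cells thus rest on WT levels that are not told from background. In C3-TAg Trf, at 6.16% of its level in other cells, also lay within the casein range. Pigr at 9.97% and Tspan8 at 13.5% lay above the caseins there. Wfdc18, also counted as higher in hormone-sensing cells, has this limit on the WT side, as Pigr and Tspan8 do. Its WT level was 3.54% of that in other cells, within the range of the single caseins, against 22.3% for C3-TAg, above them. After the subtraction 4.11 of its 131.3 CPM remained for WT, and the log2 ratio became 6.84. The size of its fold is therefore not fixed by these values. The casein-low class held 576 cells in WT and 3396 in C3-TAg, and its median casein share was 0.181% in WT and 0.0200% in C3-TAg, so the classes also differ in what they hold.

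**Figure D2:**
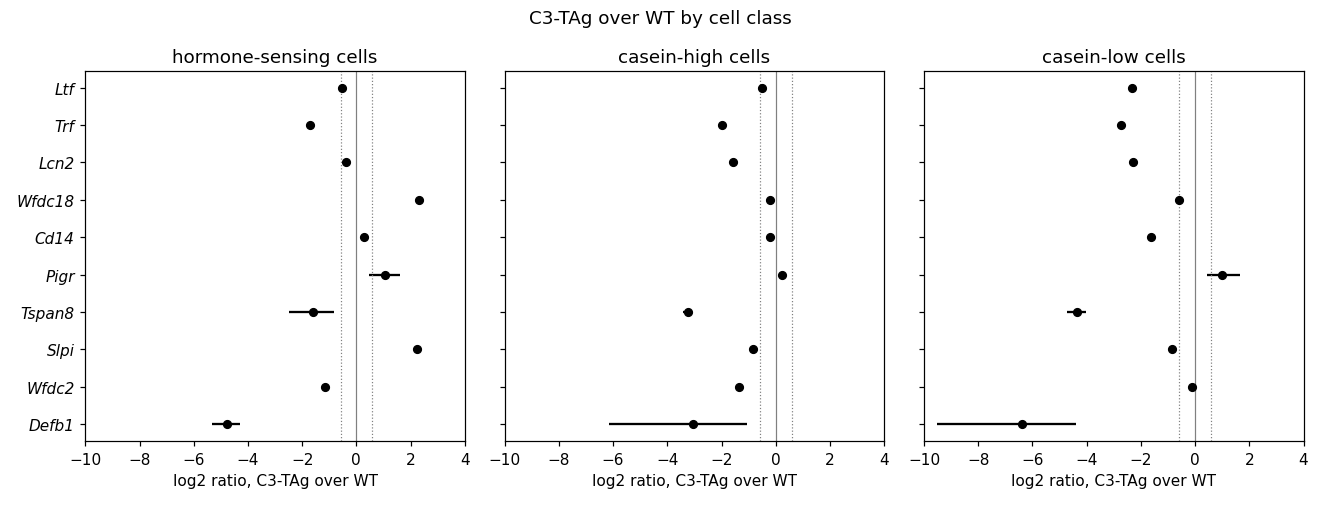
Log2 ratio of C3-TAg over WT for each gene in the 3 classes, with 95% intervals for counting error as bars and dotted lines at a ratio of 1.5 in either direction. Most genes lie left of 0 in casein-high and casein-low cells, Tspan8 at -3.24 and -4.37, while Slpi (2.24) and Wfdc18 (ratio 4.91) lie right of 0 in hormone-sensing cells only.

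Slpi (ENSMUSG00000017002, chromosome 2, 164354070 to 164389095, minus strand) encodes secretory leukocyte peptidase inhibitor, a WAP domain protein that inhibits neutrophil elastase and kills bacteria. It was at 651.0 CPM (641.4 to 660.8) in WT against 3067 CPM (3040 to 3093) in C3-TAg hormone-sensing cells, 4.71-fold higher in C3-TAg (4.63 to 4.79). In casein-high cells it was at 71.9 and 39.7 CPM and in casein-low cells at 156 and 86.6 CPM, so C3-TAg was 1.81-fold and 1.80-fold lower there. The direction in hormone-sensing cells was thus opposite to that in both other classes. The casein-high call was lost with called doublets kept (log2 ratio -0.50) and the casein-low call with a hormone gene cut of 10 (-0.42).

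The Slpi difference lay in how many cells carried it as well as in how much. A Slpi UMI was present in 30.3% (28.5 to 32.0%) of WT against 67.6% of C3-TAg hormone-sensing cells thinned to 2000 UMIs, and in 51.1% and 79.0% unthinned, at median depths of 9431.5 and 7829 UMIs. In casein-high cells the thinned shares were 6.47% and 5.94%, and 0 of 9 WT non-epithelial cells held one, which allows a share of up to 33.3%, as did none of the 6 in C3-TAg. The median hormone-sensing cell held 0.75 Slpi UMIs per 10000 in WT and 13.5 in C3-TAg. In WT the 5% of hormone-sensing cells with the highest level held 55.2% of the UMIs, against 30.1% in C3-TAg, so that more of the WT level rested on few cells.

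Wfdc2 (ENSMUSG00000017723, chromosome 2, 164562413 to 164568510, plus strand) encodes a secreted WAP domain protein of glandular epithelia. It was at 2257 CPM in WT against 1015 CPM in C3-TAg hormone-sensing cells, 2.22-fold lower in C3-TAg (2.19 to 2.26), the opposite of Slpi in the same cells. A UMI was present in 93.9% of WT against 71.7% of C3-TAg hormone-sensing cells thinned to 2000 UMIs, and in 99.2% and 90.1% unthinned. In casein-high cells it was at 63.3 and 24.6 CPM, 2.57-fold lower (2.37 to 2.80). That WT level was 2.81% of the hormone-sensing one, within the range of single hormone-sensing markers there. In casein-low cells it was at 260.7 and 241.2 CPM, and this comparison depended on the hormone gene cut, with log2 ratios of 0.47, -0.11, -1.05 and -1.87 at cuts of 3, 5, 10 and 20. With free RNA subtracted, scaled by Cxcl15 alone, the log2 ratio was 1.60, which turned the direction and counted as higher. That value rests on 1 gauge gene. In WT casein-low cells Cxcl15 was at 8.28% of its hormone-sensing level and Wfdc2 at 11.6%. Single hormone-sensing markers ran from 1.02% (Areg) to 19.8% (Wnt4) there.

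Defb1 (ENSMUSG00000044748, chromosome 8, 21776599 to 21795185, plus strand) encodes a beta-defensin, an antimicrobial peptide that epithelia make without stimulation. It was at 53.1 CPM (50.4 to 55.9) in WT against 1.94 CPM (1.33 to 2.72) in C3-TAg hormone-sensing cells, 27.4-fold lower in C3-TAg (19.4 to 40.0). It was at 5.27 CPM in WT casein-low cells and at 0.576 CPM or less in WT casein-high cells and both C3-TAg classes of other cells, where C3-TAg had 2 UMIs each. A Defb1 UMI was found in 11.3% of WT hormone-sensing cells and 0.543% of C3-TAg ones unthinned, and in 4.76% and 0.297% at 2000 UMIs.

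These 3 genes were followed over the hormone gene UMIs of the cell, in all kept cells. Slpi was higher with each bin in C3-TAg, from 42.2 CPM in cells under 1 per 10000 to 885.9 CPM at 5 to 10 and 4250.2 CPM over 50, and in WT it was at 639.7 CPM from 10 to 20 and 691.3 CPM over 50. The ratio of C3-TAg over WT grew from 0.580 to 6.15 over these bins. Wfdc2 reached 2536 CPM in WT against 1289.7 CPM in C3-TAg over 50, with a ratio of 0.509 there, while under 1 per 10000 it was 1.58-fold higher in C3-TAg. Defb1 was at 61.6 CPM in WT against 1.87 CPM in C3-TAg over 50, so the gap was also present in the cells farthest from the cut.

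**Figure D3:**
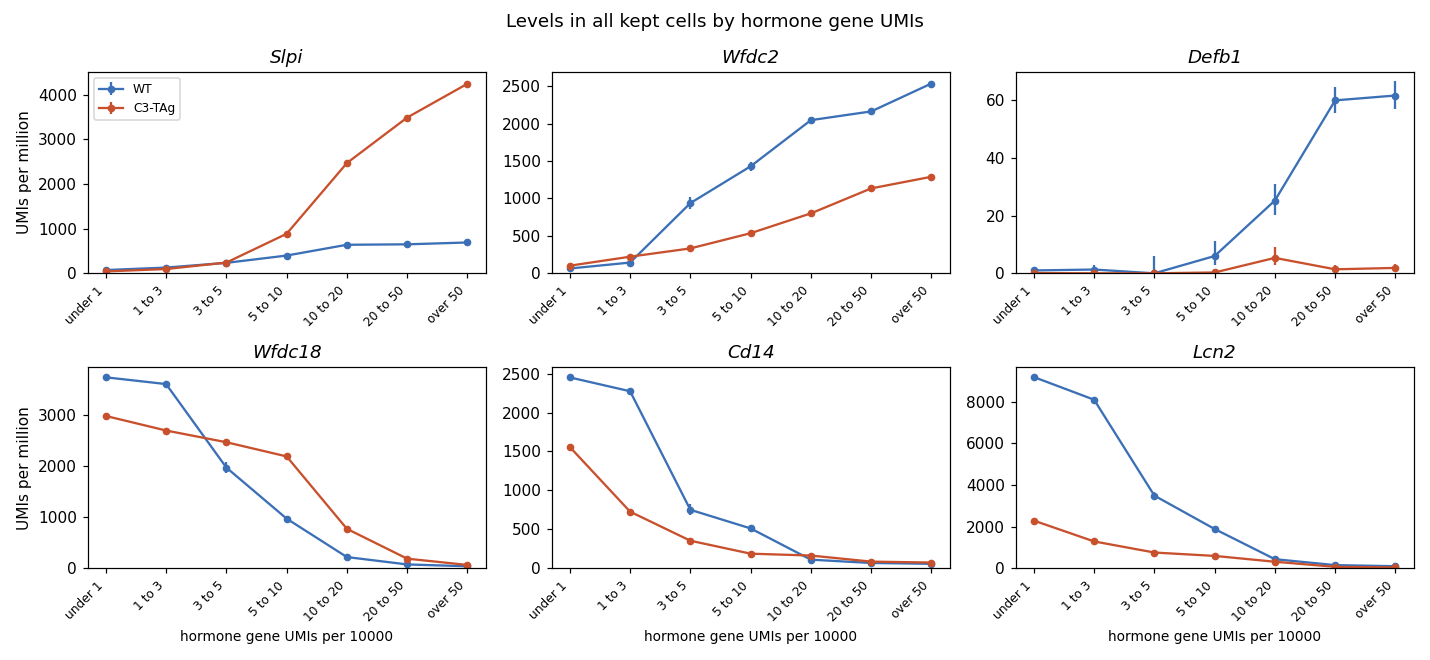
Levels of 6 genes (CPM) in all kept cells of WT (blue) and C3-TAg (red) by the UMIs of Areg, Pgr, Esr1 and Cited1 per 10000 in the cell, with 95% Poisson intervals as bars. Slpi climbs to 4250.2 CPM in C3-TAg and is at 691.3 CPM in WT in the last bin, Defb1 reaches 61.6 CPM in WT against 1.87 CPM in C3-TAg, and Wfdc18, Cd14 and Lcn2 are lowest in the last bin.

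Hormone-sensing cells were split into those with more UMIs of Fxyd2 and Cdh13 (1012 WT and 631 C3-TAg cells) and those with more of Fgb and Calca (1457 and 838), a split chosen after seeing the data. Cdh13 was at 102.2 against 22.7 CPM in the first and second kind of WT and at 4.03 against 3.16 CPM in C3-TAg. In C3-TAg the first kind thus rests mainly on Fxyd2, at 1448 against 103.7 CPM. It may not hold the same cells as in WT. Slpi was 5.71-fold and 6.01-fold higher in C3-TAg in these kinds, and Wfdc2 was at 0.572 and 0.506 of WT. In the remaining cells, with equal or no UMIs of these genes (251 WT and 558 C3-TAg), Slpi was 1.80-fold higher and Wfdc2 at 0.272 of WT. Defb1 was at 24.9 CPM in the first and 76.4 CPM in the second kind in WT, and at 6.58 and 0.274 CPM in C3-TAg. The order of the kinds for Defb1 was therefore the reverse in C3-TAg, where 31 and 2 UMIs stood behind the values. Only 11 of all 2027 C3-TAg hormone-sensing cells held a Defb1 UMI, so that order rests on few cells.

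The levels of Ltf, Trf, Lcn2, Wfdc18, Cd14, Pigr and Tspan8 in hormone-sensing cells were set beside the caseins, since free RNA from 1 source would leave its genes in a fixed proportion in every class. In WT and C3-TAg hormone-sensing cells Ltf stood at 111.9 and 76.9 CPM, Wfdc18 at 131.3 and 644.4 CPM, Cd14 at 95.1 and 115.0 CPM, Pigr at 1.80 and 3.70 CPM and Tspan8 at 2.85 and 0.940 CPM. In WT the 4 caseins in hormone-sensing cells were at 3.43% of their level in other cells, each between 2.99 and 4.24%. Cd14 was at 3.94%, Ltf at 4.21%, Wfdc18 at 3.54% and Pigr at 3.43%, within that range. Lcn2 at 2.97%, Trf at 2.96% and Tspan8 at 2.78% were just under it. At this cut the WT levels of these genes thus did not stand above the caseins. In C3-TAg the caseins were at 6.02%, each between 5.76 and 6.23%, and Trf at 6.16% lay within and Ltf at 6.49% (6.14 to 6.86%) at the edge. Cd14 at 8.71%, Pigr at 9.97%, Lcn2 at 10.3%, Tspan8 at 13.5% and Wfdc18 at 22.3% (21.8 to 22.7%) lay above the caseins. Elf5, a transcription factor of alveolar cells taken as a further gauge, was at 8.33% (7.28 to 9.50%) in C3-TAg. Cd14 lay within that interval, and the intervals of Pigr (7.63 to 12.8%) and Tspan8 (7.67 to 22.2%) overlapped it.

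The casein level itself came from few cells, since the 5% of hormone-sensing cells with the highest level held 80.8% of the Csn2 UMIs of the class in WT and 85.8% in C3-TAg. Free RNA and droplets of mixed content cannot be told apart in it. The comparison was repeated in the 2203 WT and 1351 C3-TAg cells with at least 20 hormone gene UMIs per 10000, a choice made after seeing the data, where the caseins were at 0.954% and 1.72% of other cells. In WT the single caseins ran from 0.746 to 1.17% in these cells, and Elf5 was at 1.51% (1.22 to 1.84%). Trf at 1.03% and Pigr at 0.877% lay within the casein range. Ltf at 1.49%, Lcn2 at 1.43%, Tspan8 at 1.44% and Wfdc18 at 1.59% lay above the caseins and within the interval of Elf5, and Cd14 at 2.64% lay above both. In C3-TAg the caseins ran from 1.14 to 2.29% and Elf5 was at 1.70% (1.15 to 2.43%). Trf at 1.90%, Pigr at 1.97% and Ltf at 2.25% lay within both ranges. Lcn2 at 2.82% (2.61 to 3.06%), Wfdc18 at 4.26% (4.04 to 4.50%), Cd14 at 6.06% (5.66 to 6.47%) and Tspan8 at 10.5% (4.52 to 20.9%, on 8 UMIs) lay above both.

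**Figure D4:**
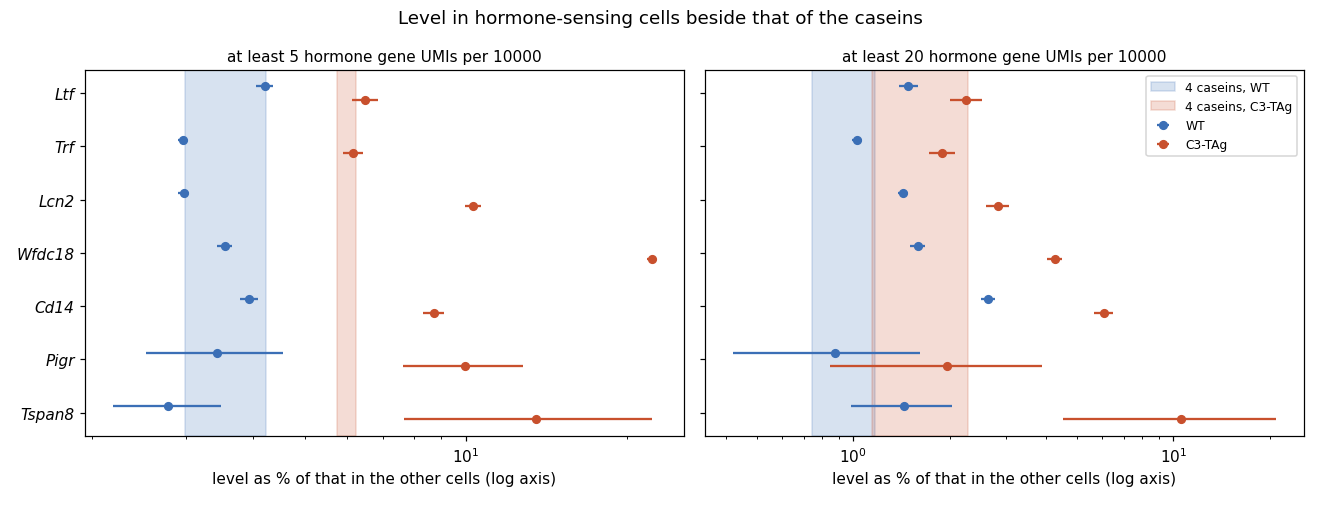
Level in hormone-sensing cells as a percent of the level in other cells (log axis) for 7 genes, with 95% intervals as bars and shaded bands for the range of the 4 caseins, in WT (blue) and C3-TAg (red), for 2 cuts on the hormone genes. At the cut of 5 the WT points lie in or just under the casein band, and at the cut of 20 Cd14 lies right of the band in both libraries.

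The higher Wfdc18 of C3-TAg hormone-sensing cells, 644.4 against 131.3 CPM (4.91-fold, 4.72 to 5.10), was unevenly spread over the class. Between 5 and 10 hormone gene UMIs per 10000 it was at 2191 CPM in 357 C3-TAg cells and 973.0 CPM in 147 WT cells, and over 50 it was at 66.8 and 40.8 CPM. Among C3-TAg hormone-sensing cells, the 313 with at least 5 UMIs of 20 mitotic genes per 10000 had 2224 CPM and the 1249 with under 1 had 100.7 CPM. The log2 ratio of C3-TAg over WT was 1.10 with called doublets kept and 1.07 at a cut of 20, both still past 1.5-fold. It was 1.25-fold higher in C3-TAg among cells with more Fxyd2 and Cdh13 and 1.42-fold among those with more Fgb and Calca, both under 1.5-fold, and 6.16-fold among cells with equal or no UMIs of these genes. Away from the cut C3-TAg was 2.47-fold higher between 20 and 50 hormone gene UMIs per 10000 and 1.64-fold higher over 50. Non-mitotic cells of the class, taken at any distance from the cut, were at 100.7 CPM in C3-TAg and 136.1 CPM in WT. Slpi was distributed the other way, at 360.4 CPM in the mitotic and 4029.6 CPM in the non-mitotic cells of the class. The part of these mitotic cells in the Wfdc18 difference was not tested. Pigr, counted as higher in this class on 63 C3-TAg and 48 WT UMIs, had a log2 ratio of 0.08 with called doublets kept. Ltf, at -0.54, was at 0.05 with a cut of 10, and Lcn2, at -0.38, was lower by more than 1.5-fold with called doublets kept (-1.39) and at a cut of 20 (-1.19).

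The low set was then followed over the casein share among other cells, which compares cells of like milk gene content between the libraries, a comparison added after seeing the data. Trf was higher with the casein share in both libraries, from 1913 to 20183 CPM in WT and from 300.0 to 7035 CPM in C3-TAg between under 0.1% and over 5%. C3-TAg was lower in all 7 bins, with ratios between 0.157 and 0.409. Lcn2 went from 3104 to 10184 CPM in WT and from 769.4 to 4001 CPM in C3-TAg, with ratios between 0.248 and 0.393 in all 7 bins. The Trf ratio was 0.311 to 0.349 in the 4 bins of the casein-high class, nearer to WT than 3903 against 15613 CPM in the whole class, while the Lcn2 ratio in the same bins, 0.320 to 0.393, lay around the 0.333 of the class.

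Tspan8 was also lower in all 7 bins, with ratios between 0.0560 and 0.175. Wfdc18 kept ratios between 0.667 and 0.852. Cd14 and Ltf differed by bin. Cd14 was at 0.330 of WT under 0.1% and at 0.948 over 5%. Ltf was at 0.147 under 0.1%, 0.802 at 2 to 5% and 0.583 over 5%. For both genes the gap between libraries was widest in cells with the least casein, of which WT had 181 and C3-TAg 2776.

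Pigr ran the other way. It was higher with the casein share, from 2.23 to 83.5 CPM in WT and from 8.80 to 167.3 CPM in C3-TAg, and was higher in C3-TAg in all 7 bins, by 1.56-fold to 3.95-fold. The interval of the bin from 0.1 to 0.25% (0.967 to 4.78) included 1. The casein-high class as a whole showed 1.16-fold, and C3-TAg had 384 cells over 5% casein where WT had 1612. Slpi was lower in the last bin than in the first, from 262.8 to 57.9 CPM in WT and from 97.0 to 25.6 CPM in C3-TAg.

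**Figure D5:**
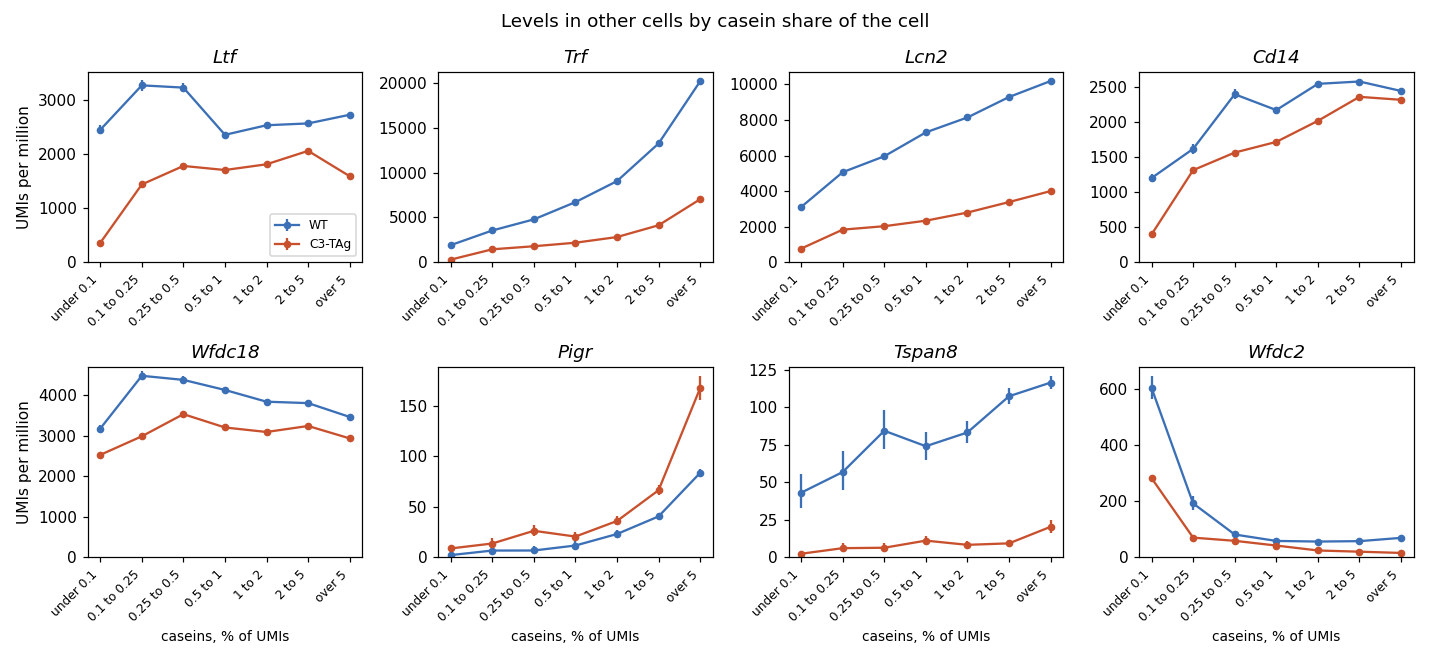
Levels of 8 genes (CPM) among other cells of WT (blue) and C3-TAg (red) by the percent of UMIs from the 4 caseins in the cell, with 95% Poisson intervals as bars. Trf and Lcn2 climb with the casein share and stay lower in C3-TAg throughout, Cd14 is at 0.948 of WT in the last bin, and Pigr is higher in C3-TAg, at 167.3 against 83.5 CPM in the last bin.

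Within C3-TAg, cells with at least 5 mitotic UMIs per 10000 were set beside those with under 1. WT had 4 to 7 cells per class with at least 5, under the 20 set as the minimum for a value. Among casein-high cells (1392 mitotic and 310 not) Ltf was at 2056 against 1110.4 CPM, Lcn2 at 2749 against 4100.7 CPM, Trf at 3167 against 6469 CPM and Pigr at 53.8 against 122.3 CPM. Ltf was thus higher in the mitotic cells, Trf and Pigr were lower and Lcn2 was just within 1.5-fold, while Wfdc18 was at 3131 and 3111 CPM. In casein-low cells (2428 mitotic and 245 not) Lcn2, Trf, Wfdc18, Cd14 and Tspan8 were at least 1.5-fold lower in the mitotic cells, Ltf was within 1.5-fold at 550.6 against 816.4 CPM, and Slpi was at 34.5 against 757.4 CPM.

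A split by the summed UMIs of 14 NF-kB response genes, into 3 equal groups by rank within a class, gave a further contrast between the libraries, mainly in casein-low cells. In WT casein-low cells the highest group (192 cells) had 5225 CPM of Ltf and the lowest (192 cells) 1271 CPM, 4.11-fold (3.91 to 4.32). Cd14 was at 2599 against 1124 CPM, Wfdc18 at 5378 against 2985 CPM and Lcn2 at 6332 against 3560.4 CPM. In C3-TAg casein-low cells (1132 in each group) Trf was lower in the highest group, at 271.0 against 913.5 CPM, where WT had 3828 against 3265 CPM, and Cd14 was lower, at 412.2 against 863.7 CPM. Ltf, at 510.1 against 719.5 CPM, Lcn2, at 881.4 against 1222 CPM, and Wfdc18, at 2657 against 2892 CPM, were within 1.5-fold. The highest groups had 8.11-fold and 9.23-fold more Icam1, one of the 14 genes, than the lowest in WT and C3-TAg. In hormone-sensing cells the libraries went the same way, with Ltf 4.36-fold higher in the highest group of WT and 1.80-fold in C3-TAg. Lcn2 was 1.78-fold and 2.15-fold higher there, Wfdc18 3.09-fold and 2.93-fold and Cd14 1.74-fold and 1.72-fold. Defb1 was lower, at 0.584 and 0.422 of the lowest group, and Trf, Slpi and Wfdc2 were within 1.5-fold in both. In casein-high cells Slpi was higher in the highest group of both libraries, at 114.9 against 42.9 CPM in WT and 55.0 against 26.9 CPM in C3-TAg. In casein-low cells Slpi was at 68.0 against 151.3 CPM in WT and 68.0 against 69.7 CPM in C3-TAg. Wfdc2 was at 99.0 against 480.2 CPM in WT casein-low cells and 282.4 against 161.9 CPM in those of C3-TAg. Whether these differences between the libraries exceed those between animals was not tested.

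Lists of related genes, chosen for their known roles, gave the wider setting. Of 25 further genes of iron uptake, storage and export, 5 of 22 measured were higher and 6 lower in C3-TAg hormone-sensing cells, 5 and 5 of 22 in casein-high cells and 6 and 10 of 23 in casein-low cells. Over all measured genes 22.8% were higher and 9.14% lower in hormone-sensing, 31.2% and 10.6% in casein-high and 37.2% and 14.7% in casein-low cells, so the share of higher iron genes in hormone-sensing cells was close to that of all genes. Hp, the haemoglobin-binding haptoglobin, was lower in all 3 classes, at 0.265, 0.118 and 0.0805 of WT, and Slc39a14, an importer of iron and zinc, at 0.620, 0.421 and 0.163. Cp, the ferroxidase ceruloplasmin, was at 2.19 of WT in hormone-sensing and at 0.371 in casein-high cells. Tfrc, the transferrin receptor, was 2.74-fold and 1.78-fold higher in C3-TAg casein-high and casein-low cells, and Fth1, the ferritin heavy chain, was 2.24-fold lower in casein-low cells.

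Of 25 other antimicrobial and WAP domain genes, 1 of 15 measured was higher and 7 lower in casein-high cells, 2 and 11 of 15 in casein-low cells and 5 and 4 of 14 in hormone-sensing cells. The shares of all genes were 31.2% higher and 10.6% lower, 37.2% and 14.7%, and 22.8% and 9.14% in these classes. Wfdc3, a WAP domain protein, was 2.94-fold lower in casein-high cells, and Muc1, a membrane mucin, was 2.36-fold and 4.38-fold lower in casein-high and casein-low cells. S100a8, a subunit of the metal-binding protein calprotectin, was 7.28-fold lower in casein-low cells. Of 16 genes that act with CD14, 1 of 14 was higher and 5 lower in casein-high, 2 and 7 of 14 in casein-low and 3 and 1 of 14 in hormone-sensing cells, beside the same shares of all genes. Lbp, which passes lipopolysaccharide to CD14, was at 0.441 and 0.342 of WT in casein-high and casein-low cells, and Ly96, the partner of TLR4, was 1.68-fold higher in hormone-sensing cells.

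Of 14 genes around immunoglobulin transport, 2 of 10 measured were higher and 1 lower in casein-high cells, 3 and 1 of 8 in casein-low cells and 1 and 1 of 8 in hormone-sensing cells. Over all genes 31.2% were higher and 10.6% lower in casein-high, 37.2% and 14.7% in casein-low and 22.8% and 9.14% in hormone-sensing cells, so the share of higher transport genes in casein-low cells was close to that of all genes. Mal2, a protein of transcytosis, was 1.77-fold and 1.85-fold higher in casein-high and casein-low cells. Of 19 other tetraspanins, 4 of 16 were higher and 4 lower in casein-high, 4 and 7 of 16 in casein-low and 2 and 2 of 16 in hormone-sensing cells, beside the same shares of all genes. Cd9 was within 1.5-fold in casein-high (1.05) and hormone-sensing cells (1.11), Cd63 was at 0.467 and 0.378 of WT in casein-high and casein-low cells, and Tspan6 was 3.24-fold higher in casein-low cells. The median log2 ratios of the iron, antimicrobial, CD14, transport and tetraspanin lists in casein-low cells were -0.31, -1.26, -0.40, 0.38 and -0.17, against 0.35 for all genes.

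Likeness was measured as the root mean square difference of log2(CPM + 5), centred over the 6 levels of 3 classes in both libraries, among 7290 genes. Among the 10 genes themselves Ltf was nearest to Cd14 (0.39) and to Lcn2 (0.42). Over all genes ranked, Igfbp5 (0.24) and Mfge8 (0.25) were nearest to Lcn2, Muc15 (0.25) and Plb1 (0.29) to Cd14, and Chil1 (0.36) and Gm13889 (0.47) to Trf. Ltf had Cd14 (0.39) and Mfge8 (0.39), Wfdc18 had Wnt5b (0.41) and Kcnn4 (0.43), Pigr had Cyp24a1 (0.31) and Abhd5 (0.35), and Tspan8 had Nnat (0.29) and Clic6 (0.36). For the hormone-sensing set these were Plac8 (0.57) for Slpi, Nupr1 (0.42) and Prom1 (0.62) for Wfdc2, and Mdga2 (0.19) and Ak1 (0.23) for Defb1. The 6 levels come from 1 library per genotype, so likeness describes these libraries.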

How the data were processed

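Single-cell 3′ libraries of sorted mammary luminal cells, 1 per genotype, were read from the deposited matrices of UMI counts per gene and barcode. Per the submitters' processing notes the authors used Cell Ranger 3.1.0 with mm10. The counts were whole numbers and had not been normalized. The sources used here do not give the counting's strand setting or the barcode calling, and no barcode had under 500 UMIs. Groups were taken from the labels, and no cell annotation was used. Reporter and T antigen transcripts were not analysed here.

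Cells needed 500 genes, 1000 UMIs and at most 10% mitochondrial UMIs. Of 8993 WT barcodes (91133082 UMIs) 7406 passed, and of 9575 C3-TAg barcodes (91932121 UMIs) 8458. Doublets called with Scrublet in scanpy 1.11.5 were removed, 360 in WT and 544 in C3-TAg. The classes were then formed as described above, counts were summed per library and class, and levels in CPM were computed with exact Poisson 95% intervals. For ratios the interval is the exact conditional Poisson one, and for shares of cells the exact Clopper-Pearson one. All intervals cover counting error only, because cells of 1 library are not replicates. Depth was 26701840, 46861829 and 4748326 UMIs in the WT hormone-sensing, casein-high and casein-low classes and 17024442, 28595650 and 32186923 in those of C3-TAg. A gene was measured in a comparison with at least 20 UMIs over both groups. For shares of cells holding a UMI, each was thinned to 2000 UMIs, which dropped 0 to 22 shallower cells per class. Mixed RNA was gauged by the level of the caseins in hormone-sensing cells as a percent of that in other cells. For the subtraction in the casein classes the gauge was Cxcl15 alone, as a share of its level in hormone-sensing cells.

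All 10 genes are named. From each related list the text takes examples among up to 3 genes with the highest and up to 3 with the lowest ratio per class, given at least 20 CPM in a library, and for each of the 10 genes the 2 nearest of those with at least 20 CPM in 1 of the 6 levels. Of these, 1 gene is not reported here. The genes, lists and thresholds were chosen with earlier results of these data known. Alternatives were TMM and median-of-ratios scaling (edgeR 4.0.16 for TMM), other cell filters, class cuts, totals, weights and references for free RNA. Computation used scipy 1.17.1, pandas 2.3.3 and numpy 2.4.6 under Python 3.11.15, and R 4.3.3, and the ratio step was tested on simulated counts. Gene coordinates are from the GENCODE annotation of GRCm38, and upstream sequences from RefSeq.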

Additional observations from a re-analysis of the deposited data

Results flagged for a closer look

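The difference between libraries had opposite signs in 2 classes for 3 genes, with every interval on its own side of 0. None of these differences between classes was tested, since each group is 1 library. For Slpi the log2 ratio of C3-TAg over WT was 2.24 in hormone-sensing cells and -0.86 in casein-high and -0.85 in casein-low cells, gaps of 3.09 and 3.08. For Wfdc18 it was above 0 in hormone-sensing cells and -0.22 and -0.61 in the casein-high and casein-low classes, gaps of 2.52 and 2.90. For Cd14 it was 0.27 in hormone-sensing and -1.63 in casein-low cells, a gap of 1.90. The WT hormone-sensing levels of Wfdc18 and Cd14 lay within the range of the caseins. Subtracting the casein share left 12.2 of the 95.1 CPM of Cd14 for WT. The Cd14 ratio also changed direction within the class. It was 0.367 between 5 and 10 hormone gene UMIs per 10000, 1.48 between 10 and 20, 1.25 between 20 and 50 and 1.28 over 50.

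Barcodes with fewer than 1000 UMIs, which were left out of all classes, also held these genes. Slpi was at 203.6 CPM in those of C3-TAg and 98.7 CPM in those of WT, a ratio of 2.06 (1.22 to 3.58). Cd14 was at 714.5 and 417.2 CPM, a ratio of 1.71 (1.32 to 2.23). The median mitochondrial share of these barcodes was 59.1% in C3-TAg and 73.6% in WT.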

How the results depend on the processing

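Over all alternative settings, 614 of 624 recomputed log2 ratios kept their sign and 509 of 521 that were past 1.5-fold stayed past it in the same direction. Scaling by TMM moved the zero point by 0.15 in hormone-sensing, 0.32 in casein-high and 0.33 in casein-low cells and kept all 42 calls. It also took Ltf, at -0.51 in casein-high and -0.54 in hormone-sensing cells without it, past 1.5-fold lower in both. The count of higher genes in casein-low cells was 2 in place of 1 with free RNA subtracted, where Wfdc2 joined Pigr. That count rests on Cxcl15 as the only gauge gene. With called doublets kept, the log2 ratios of C3-TAg over WT in hormone-sensing cells went from -1.71 to -2.31 for Trf and from -1.60 to -2.91 for Tspan8, and that of hormone-sensing over other WT cells went from -4.57 to -2.78 for Ltf, from -5.07 to -2.85 for Lcn2 and from -5.08 to -2.85 for Trf. With a hormone gene cut of 20, the log2 ratios of Ltf, Lcn2, Trf and Cd14 in casein-low cells were -1.63, -1.56, -2.03 and -0.92, all still past 1.5-fold. Wfdc18 in casein-low cells turned from -0.61 to 0.19 with a hormone gene cut of 20. The casein reference of 3.43% in WT and 6.02% in C3-TAg became 9.55% and 23.5% with Wap, Lalba and Glycam1. Glycam1 alone was at 461% of its level in other cells in WT and at 40.3% in C3-TAg. The reference was 2.55% and 9.22% with Wap and Lalba, and 0.954% and 1.72% in cells with at least 20 hormone gene UMIs. On another base, the level in barcodes under 1000 UMIs, the caseins in hormone-sensing cells were at 29.4% and 28.3%. The Wap and Lalba reference and the cut of 20 were chosen after seeing the data, and the cause of these shifts was not tested. No paired analysis was possible because each group is 1 library, and for the same reason no replicate could be left out. Depth limits Defb1, Tspan8 and Pigr most, which went down to 2, 16 and 26 UMIs in a class.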
